A study of Homo sapiens with 28 samples.

Results

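The 4 genes described here, SCN1A, SSTR3, KRTAP3-1 and LINC02413, were picked from 63139 gene rows because their RNA was far lower after bisphenol A than in its vehicle DMSO. They were named as a set of neuronal-type genes with the fall under bisphenol A already known, so that fall is a description here and carries no test. All 4 were among the 18849 genes with enough counts to be tested. The values come from poly(A) RNA of HepG2 cells, an established human line from a liver tumour. The cells had 24 h without serum and then 24 h with a compound or its vehicle. The compounds were BPA (bisphenol A, a plastics monomer) at 75 µM, TCDD (a dioxin) at 100 nM, PFOS (a perfluorinated surfactant) at 10 µM and TBTCl (an organotin) at 0.1 µM, all with DMSO as their vehicle control at no more than 0.1% of the medium, and CdCl2 at 0.5 µM with water (H2O) as its control. Each of the 7 groups had 4 libraries, which the labels assign to independent experiments. All groups share 1 tumour line, and no group is made of neurons or hair follicle cells, in which SCN1A, SSTR3 and KRTAP3-1 are best known.

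SCN1A encodes Nav1.1, the pore-forming alpha subunit of a voltage-gated sodium channel that opens on depolarisation and carries the rising phase of action potentials. It is best known in inhibitory interneurons of the brain, and loss of its function causes Dravet syndrome, a childhood epilepsy. SSTR3 encodes a receptor for the peptide hormone somatostatin. It couples to inhibitory G proteins that lower cyclic AMP, and in neurons it sits in the membrane of the primary cilium. KRTAP3-1 encodes a keratin-associated protein of the hair shaft, where such proteins cross-link hair keratins. LINC02413 is annotated as a long intergenic non-coding RNA. The name neuronal-type therefore describes SCN1A and SSTR3 and not the other pair.

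On GRCh38 with GENCODE release 29, SCN1A (ENSG00000144285) lies on the minus strand at chr2:165984641-166149214 and has 16946 exonic bases. SSTR3 (ENSG00000278195) lies on the minus strand at chr22:37204238-37212322 with 4521 exonic bases. KRTAP3-1 (ENSG00000212901) lies on the minus strand at chr17:41008521-41019324 with 725 exonic bases. LINC02413 (ENSG00000257345) lies on the plus strand at chr12:92999218-93019820 with 1251 exonic bases. The 4 genes are thus on 4 different chromosomes.

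RefSeq promoter windows of GRCh38.p14, 250 bases before to 50 after a start site, were at hand for 3 of the 4 genes, in 5 windows. The window nearest the annotated 5′ end of each gene is shown because these genes fell together under a single compound and their start regions can be set side by side. Capitals mark matches to any of 13 short motifs searched on both strands. The windows are chr2:166149112-166149411, chr22:37212428-37212727 and chr17:41009079-41009378, all read on the minus strand, 5′ to 3′.
SCN1A: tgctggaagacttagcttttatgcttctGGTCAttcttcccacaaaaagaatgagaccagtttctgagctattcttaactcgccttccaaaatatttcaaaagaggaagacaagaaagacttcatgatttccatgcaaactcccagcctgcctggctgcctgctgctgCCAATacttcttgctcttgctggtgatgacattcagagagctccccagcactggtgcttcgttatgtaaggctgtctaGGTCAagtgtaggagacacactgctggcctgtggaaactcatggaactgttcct
SSTR3: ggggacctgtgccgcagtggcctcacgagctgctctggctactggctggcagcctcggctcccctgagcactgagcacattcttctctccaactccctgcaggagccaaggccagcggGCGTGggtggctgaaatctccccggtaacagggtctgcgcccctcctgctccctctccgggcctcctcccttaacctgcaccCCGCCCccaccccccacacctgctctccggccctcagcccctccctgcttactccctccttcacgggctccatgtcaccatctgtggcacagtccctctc
KRTAP3-1: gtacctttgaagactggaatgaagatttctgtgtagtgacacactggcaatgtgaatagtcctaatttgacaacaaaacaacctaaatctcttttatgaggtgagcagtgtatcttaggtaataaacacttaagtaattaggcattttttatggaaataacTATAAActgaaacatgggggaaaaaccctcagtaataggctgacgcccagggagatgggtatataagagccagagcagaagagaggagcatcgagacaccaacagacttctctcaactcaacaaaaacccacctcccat
The 3 windows differed in base composition and had no searched motif in common. GC content was 46.3% in the SCN1A window, 67% in the SSTR3 window and 40% in the KRTAP3-1 window, against a median of 58.7% over 35116 promoters. The SCN1A window held the letters of a CCAAT box at position -82 and the estrogen response letters GGTCA at -222 and -4, counted from the start site. CCAAT occurred in 34.6% and GGTCA in 37.4% of all windows of this length. The SSTR3 window held the GC box GGGCGG at -50, here on the opposite strand, and the dioxin response core GCGTG at -132. These letters occurred in 45% and 36.5% of all windows. The KRTAP3-1 window held the TATA box letters TATAAA at -89, found in 11.5% of all windows, and its start site lay 10.2 kb from the 5′ end of the GENCODE gene. Only exact letters were searched, so the similar letters tatataag, nearer the start site in this window, were not marked. A further SCN1A window, chr2:166127971-166128270, held the AP-1 letters TGANTCA at -248 and the REST element letters CAGCACC at -62, present in 7.71% and 7.75% of windows. A further SSTR3 window, chr22:37210640-37210939, held GGGCGG at 13 and CCAAT at -87. None of the 5 windows held any of the other motifs searched. These were the E-box CACGTG, found in 7.26% of all windows, the cyclic AMP response element TGACGTCA, found in 1.85%, and the antioxidant response core TGACNNNGC, found in 13.3%. They also included the letters GTTAAT of liver factor HNF1, found in 6.88%, the HNF4 letters CAAAGTCCA, found in 0.384%, and the stress element TTGCATCA, found in 0.866%. No matches to different motifs overlapped in the windows shown, and a match describes letters only.

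The libraries held between 28.91 M and 66.04 M counted reads each (median 46.53 M). CPM is the count scaled to library size, and the levels below also carry TMM factors, which ran from 0.861 to 1.07. A count of 3 is thus worth 0.0454 to 0.104 CPM before TMM scaling, and this floor covers counting error only. The labels of TCDD and PFOS were exchanged by the submitters after deposit. CYP1A1, an enzyme gene that dioxins induce, ran from 2841 to 6410 CPM in the TCDD libraries, against 2.82 to 16.9 CPM in DMSO libraries, and reached 16.1 CPM in PFOS libraries. It also ran from 53.5 to 461.9 CPM in the BPA libraries, and its part in the results below was not tested. Its highest value was in replicate 2 in BPA, TCDD, TBTCl, CdCl2 and DMSO, and in replicate 1 in PFOS and H2O. The 10 hepatocyte markers listed summed to 26650 to 42280 CPM in BPA libraries, against 39370 to 72380 CPM in DMSO libraries, and none of the 10 was at 0 in any group. Markers of leukocytes, endothelium and stroma summed to 9.86 to 18.3 CPM in BPA libraries, against 20.3 to 28.0 CPM in DMSO libraries. In bulk RNA, fewer cells that express a gene and less RNA per cell cannot be told apart.

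SCN1A stood at 0.953, 0.345, 2.22 and 2.13 CPM in BPA replicates 1 to 4, against 20.4, 32.1, 38.1 and 24.1 CPM in the DMSO libraries. The 4 BPA libraries held 43, 15, 67 and 103 reads of the gene, so the transcript was low but not absent, and the groups were far apart. It stood at 11.1, 14.0, 10.9 and 11.8 CPM in TCDD libraries, at 19.6, 32.3, 28.4 and 19.5 CPM in PFOS libraries, and at 15.8, 19.1, 26.7 and 5.95 CPM in TBTCl libraries. The TCDD libraries were all below all DMSO libraries, the PFOS libraries overlapped them, and TBTCl replicate 4 was the lowest of the 24 libraries without BPA. It stood at 29.8, 33.1, 26.1 and 36.6 CPM in CdCl2 libraries, against 23.1, 46.1, 33.7 and 24.3 CPM in H2O libraries, which overlap.

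SSTR3 stood at 0.288, 0.322, 0.828 and 0.620 CPM in BPA libraries, against 9.54, 14.3, 13.3 and 7.94 CPM in DMSO libraries. Its BPA read counts were 13, 14, 25 and 30, and again no BPA library came near a DMSO library. It stood at 11.2, 3.97, 2.68 and 4.08 CPM in TCDD libraries, at 6.49, 14.3, 14.4 and 8.09 CPM in PFOS libraries, and at 8.44, 9.28, 10.6 and 4.80 CPM in TBTCl libraries. Among the TCDD libraries, replicate 1 was within the DMSO range and the other 3 were below it. In CdCl2 libraries it stood at 4.81, 8.66, 3.90 and 8.38 CPM, against 7.77, 11.4, 16.5 and 7.35 CPM in H2O libraries, with 2 CdCl2 libraries below all H2O libraries.

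KRTAP3-1 stood at 0.244, 0.253, 0.265 and 0.145 CPM in BPA libraries, against 4.05, 5.73, 10.4 and 2.24 CPM in DMSO libraries. These BPA values rest on 11, 11, 8 and 7 reads, the fewest of the 4 genes, and are the closest to each other. It stood at 6.64, 3.14, 2.44 and 1.79 CPM in TCDD libraries, at 3.50, 14.8, 21.4 and 3.11 CPM in PFOS libraries, and at 3.46, 3.88, 9.41 and 4.18 CPM in TBTCl libraries. Its widest spread was in PFOS, where replicates 2 and 3 were far above replicates 1 and 4. In CdCl2 libraries it stood at 11.3, 16.1, 24.5 and 7.25 CPM, against 3.67, 8.51, 4.78 and 2.35 CPM in H2O libraries, and only CdCl2 replicate 4 fell within the H2O range.

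LINC02413 stood at 0.310, 0.299, 0.795 and 0.681 CPM in BPA libraries, against 7.13, 10.1, 11.3 and 5.74 CPM in DMSO libraries. Its BPA read counts were 14, 13, 24 and 33. It stood at 8.40, 19.1, 10.0 and 7.03 CPM in TCDD libraries, at 5.91, 12.2, 11.1 and 7.05 CPM in PFOS libraries, and at 5.47, 7.00, 9.09 and 9.29 CPM in TBTCl libraries. Apart from BPA, each group overlapped its vehicle, and TCDD replicate 2 was the highest library. In CdCl2 libraries it stood at 9.51, 9.99, 9.75 and 9.21 CPM, against 7.96, 11.7, 11.1 and 6.04 CPM in H2O libraries, and all CdCl2 libraries lay inside the H2O range.

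**Figure D1:**
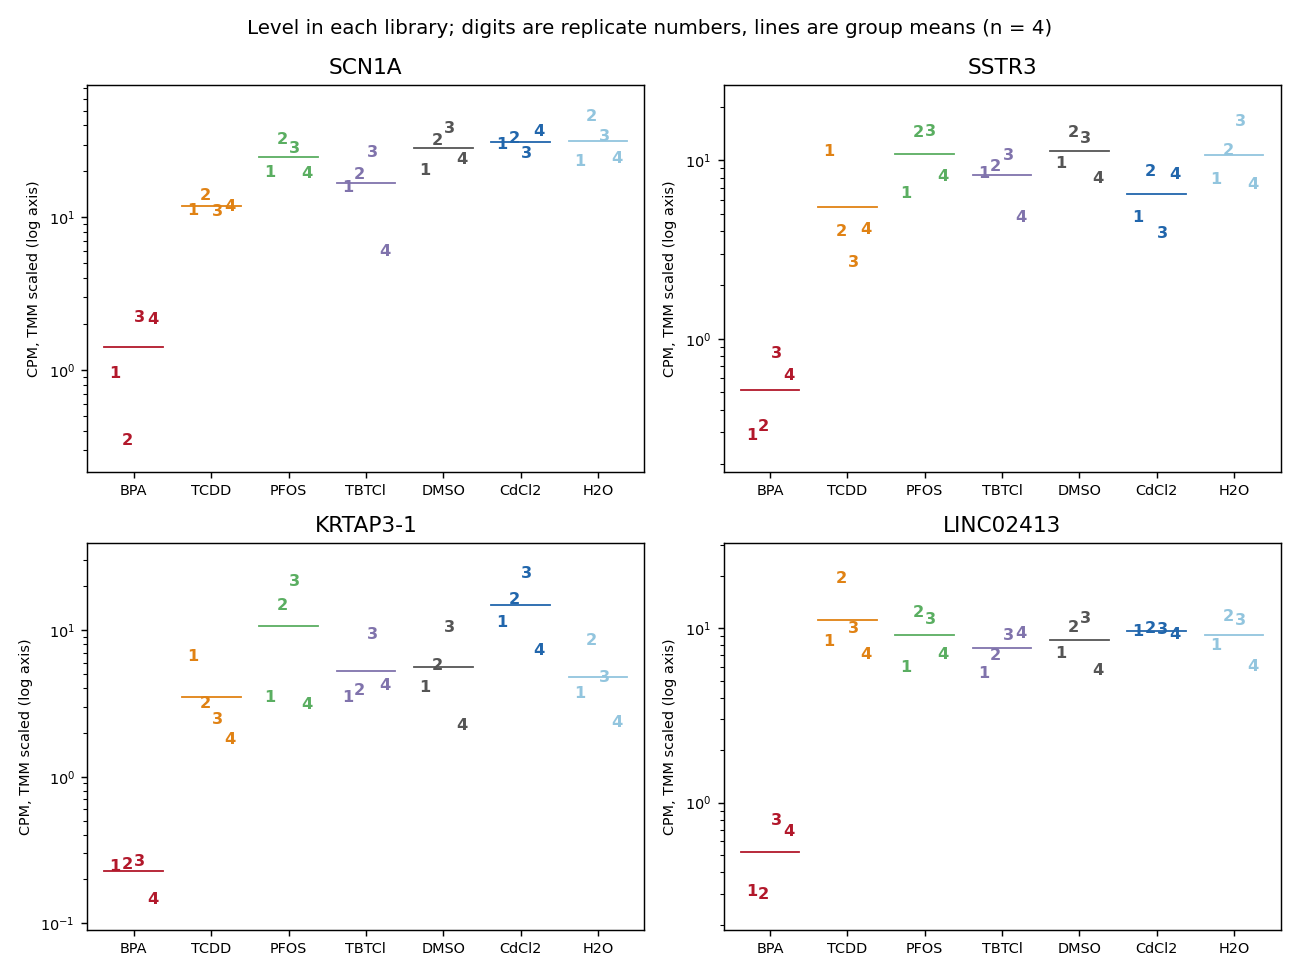
Level of each gene in every library, as TMM-scaled CPM on a log axis, in 7 groups of 4. Digits are replicate numbers and lines are group means. All 4 BPA libraries lie below all other libraries in each panel, and SCN1A in TCDD lies below its DMSO libraries.

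The mean level in BPA was 4.93% of the DMSO mean for SCN1A, 4.57% for SSTR3, 4.04% for KRTAP3-1 and 6.08% for LINC02413. For all 4 genes every BPA library was below each of the other 24 libraries, a property that 4.58% of tested genes had. The choice of these genes rested on BPA against DMSO and favours this property, so it is a description only. The margins differed between genes. The lowest library without BPA was 2.68 times the highest BPA library for SCN1A and 3.24 times for SSTR3. It was 6.77 times for KRTAP3-1 and 6.88 times for LINC02413. The lowest single BPA value, 7 reads of KRTAP3-1 in replicate 4, equals 0.131 CPM before TMM scaling with an exact Clopper-Pearson 95% interval of 0.0527 to 0.270 CPM, for counting error only. That interval reaches the range of the 3-count floor in this library, while the other 3 BPA libraries were above that range.

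Fitted log2 fold changes of BPA against DMSO were -4.36 (SE 0.43) for SCN1A, -4.48 (SE 0.48) for SSTR3, -4.64 (SE 0.72) for KRTAP3-1 and -4.06 (SE 0.37) for LINC02413. These are the values that chose the genes. The 95% intervals ran from -5.24 to -3.49 for SCN1A and from -5.46 to -3.51 for SSTR3. They ran from -6.12 to -3.15 for KRTAP3-1 and from -4.83 to -3.30 for LINC02413. All overlap, and differences between the 4 falls were not tested. Across all tested genes 17.6% were called lower and 17.3% higher in BPA at a Benjamini-Hochberg adjusted p under 0.05. The called-lower share was 24.2% of 1008 lincRNA genes and 14.9% of 13414 protein-coding genes. Among 1458 genes called lower with a symbol and at least 5 CPM in a group, KRTAP3-1, SSTR3, SCN1A and LINC02413 stood at places 1, 3, 4 and 6 by fold change. The same comparison chose the 4 genes, so these places are a description only. DKK1, which encodes a secreted Wnt inhibitor, was at place 2 with 8.80 ± 5.30 CPM in BPA and 214.9 ± 27.5 CPM in DMSO (SD, n = 4 each). CA9, TUBB1 and ERP27 stood just after LINC02413 with log2 fold changes of -3.91, -3.87 and -3.75. CA9 encodes a carbonic anhydrase and TUBB1 a tubulin. Without BPA replicate 2 the log2 fold changes were -4.03 for SCN1A, -4.32 for SSTR3, -4.70 for KRTAP3-1 and -3.87 for LINC02413. That library had the lowest SCN1A and the highest CYP1A1 of the BPA libraries. CYP1A1 was also highest in replicate 2 of TCDD, TBTCl, CdCl2 and DMSO.

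Only on a per-length scale can the genes be set against each other. In BPA libraries SCN1A averaged 0.083 ± 0.054 CPM per kb of exon, SSTR3 0.114 ± 0.057, KRTAP3-1 0.312 ± 0.076 and LINC02413 0.417 ± 0.203. In DMSO libraries the levels per kb were 1.69 ± 0.47 for SCN1A, 2.49 ± 0.67 for SSTR3, 7.73 ± 4.82 for KRTAP3-1 and 6.85 ± 2.06 for LINC02413 (SD, n = 4 each). SCN1A and SSTR3 overlapped within their spread in either group, and so did KRTAP3-1 and LINC02413. KRTAP3-1 and LINC02413, the shorter transcripts, had the higher means.

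Over the 7 groups SCN1A had its highest mean in H2O at 31.8 ± 10.7 CPM, followed by CdCl2, DMSO, PFOS and TBTCl, then TCDD at 11.9 ± 1.4 CPM and BPA at 1.41 ± 0.91 CPM. SSTR3 was highest in DMSO at 11.3 ± 3.0 CPM, followed by PFOS, H2O, TBTCl and CdCl2, then TCDD at 5.49 ± 3.88 CPM and BPA at 0.514 ± 0.257 CPM. KRTAP3-1 was highest in CdCl2 at 14.8 ± 7.4 CPM, followed by PFOS, DMSO, TBTCl and H2O, then TCDD at 3.51 ± 2.16 CPM and BPA at 0.227 ± 0.055 CPM. In these 3 genes TCDD stood next to BPA at the low end. LINC02413 had the other order, with TCDD highest at 11.1 ± 5.5 CPM, then CdCl2, H2O, PFOS, DMSO, TBTCl at 7.71 ± 1.82 CPM and BPA at 0.521 ± 0.255 CPM. Neighbouring groups overlapped throughout in each of these orders except at the last step, down to BPA.

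The other compounds were tested in the same fit, and the DMSO libraries used for TCDD, PFOS and TBTCl are also those of the comparison that chose the genes. In TCDD libraries SCN1A fell by 1.26 on the log2 scale relative to DMSO (SE 0.36, edgeR adjusted p = 0.0252, lower in 4 of 4 TCDD libraries than in all DMSO libraries). This was 1 of 4 genes, where 2.8% of all tested genes were called lower in TCDD and 6.45% higher. Groups fell apart with TCDD lower in 5.95% of genes. Against water, which replaces those shared DMSO libraries, SCN1A had a log2 fold change of -1.41 in TCDD (edgeR adjusted p = 0.0116), where 3.04% of genes were called lower. The call against DMSO was lost without any of 5 libraries. Its edgeR adjusted p was 0.0584 without DMSO replicate 2, 0.0862 without DMSO replicate 3, 0.0549 without TCDD replicate 1, 0.0688 without TCDD replicate 3 and 0.0544 without TCDD replicate 4.

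SSTR3 had a log2 fold change of -1.03 in TCDD against DMSO (SE 0.39, edgeR adjusted p = 0.105), which did not pass. Without TCDD replicate 1 the value was -1.66 with an edgeR adjusted p of 0.00394. Without a filter on low counts it was -1.06 with an edgeR adjusted p of 0.0170. KRTAP3-1 had -0.67 (SE 0.55, edgeR adjusted p = 0.546) and LINC02413 had 0.38 (SE 0.30, edgeR adjusted p = 0.528) in TCDD. The interval for LINC02413 ran from -0.24 to 1.00, so a fall of the size seen for SCN1A lies outside it.

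None of the 4 genes was called by edgeR in PFOS, a comparison with 0.0159% of genes called. The largest PFOS value was 0.93 for KRTAP3-1 (SE 0.55, edgeR adjusted p = 1.00). None was called in TBTCl either, with 0.143% of genes called. SCN1A was at -0.76 in TBTCl (SE 0.36), with an unadjusted p of 0.0437 and an edgeR adjusted p of 0.305. In CdCl2 against water none was called, with 0.0212% of genes called. KRTAP3-1 was at 1.61 in CdCl2 (SE 0.55), a fold change of 3.05, with an unadjusted p of 0.00731 and an edgeR adjusted p of 0.898. In DMSO against water none of the 4 was called, with 0% of all genes called by edgeR, 431 genes at an unadjusted p under 0.05 and 1 gene called by DESeq2. DESeq2 also called 0 of the 4 genes in each of these comparisons. The DMSO-to-water intervals ran from -0.88 to 0.58 for SCN1A and from -0.91 to 1.34 for KRTAP3-1, and vehicle differences inside these intervals could not be resolved.

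**Figure D2:**
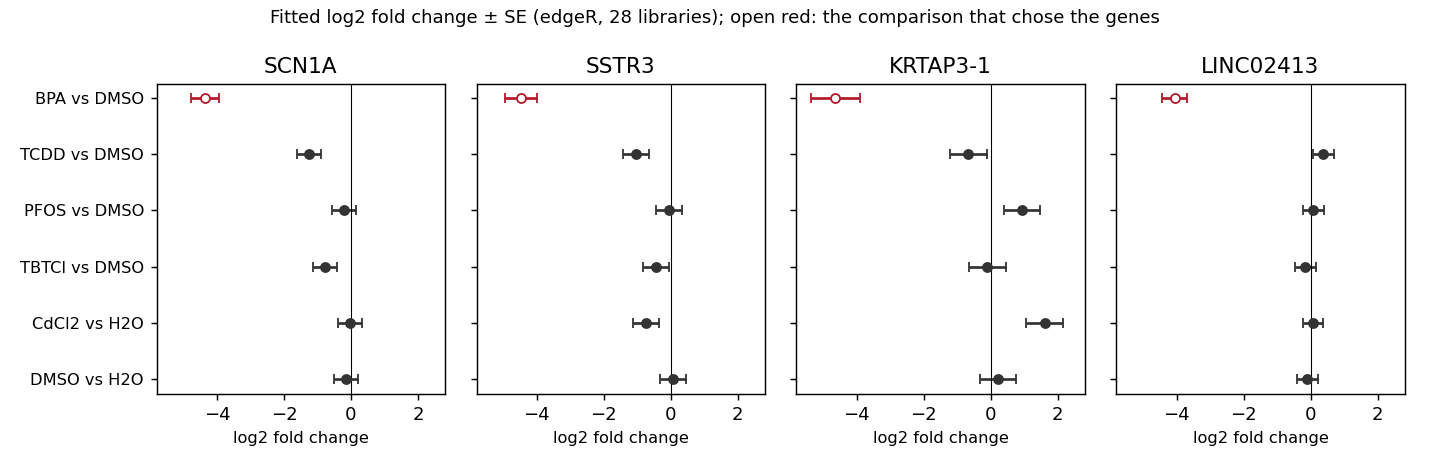
Fitted log2 fold change with its SE for each gene in 6 comparisons, from a single edgeR fit of 28 libraries. The open red point is the comparison that chose the genes. BPA lies between -4.64 and -4.06, while the other values lie between -1.26 and 1.61.

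The replicate numbers also carried a pattern. Replicates 2 and 3 were both above replicates 1 and 4 in 4 of 7 groups for SCN1A and for SSTR3, and in 5 of 7 for KRTAP3-1 and for LINC02413. The labels do not say that equal numbers in different groups come from 1 experiment. Over the 24 libraries without BPA the log2 levels of SCN1A and SSTR3 had r = 0.586, those of SCN1A and KRTAP3-1 r = 0.534, and those of KRTAP3-1 and LINC02413 r = 0.476. SSTR3 and LINC02413 had the lowest value of the 6 pairs, r = 0.050. With the group means taken out, all 6 pairs were positive, from r = 0.291 for SSTR3 and LINC02413 to r = 0.656 for KRTAP3-1 and LINC02413. These values are descriptions across libraries that share depth, scaling and replicate numbers.

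Genes with the most similar pattern to each of the 4 were sought among 13499 tested genes with a symbol and a mean of at least 1 CPM, by Pearson r of log2 levels over the same 24 libraries. For SCN1A they were DENND11 (r = 0.959), KLF3 (r = 0.940) and MYOM3 (r = 0.919). DENND11 and KLF3 were not called in BPA, at -0.20 and -0.22 on the log2 scale (edgeR adjusted p = 0.356 and 0.198), and MYOM3 rose by 0.71 (edgeR adjusted p = 0.00108). For SSTR3 they were CD83 (r = 0.845), IVD (r = 0.818) and ZNF268 (r = 0.801). CD83, a surface molecule of activated immune cells, fell by 1.46 in BPA (edgeR adjusted p = 8.68e-06), and IVD, an enzyme of leucine breakdown, fell by 0.32 (edgeR adjusted p = 0.0363).

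For KRTAP3-1 the most similar genes were SPINT1 (r = 0.927), NDRG3 (r = 0.906) and NUGGC (r = 0.904). SPINT1, an inhibitor of serine proteases at the cell surface, was at 0.39 in BPA (edgeR adjusted p = 0.364), and NUGGC fell by 1.63 (edgeR adjusted p = 0.0265). For LINC02413 they were RINL (r = 0.874), CHURC1 (r = 0.847) and TMEM139 (r = 0.837). TMEM139 fell by 2.12 in BPA (edgeR adjusted p = 3.72e-06) and CHURC1 by 0.52 (edgeR adjusted p = 0.0181), while RINL was at -0.10 (edgeR adjusted p = 0.664). With the group means taken out, the r values of these 12 genes over the 24 libraries ran from 0.72 for IVD to 0.94 for NUGGC. Much of the likeness thus lies between libraries of the same group. With the group means kept and the BPA libraries added, the r values ran from -0.365 for MYOM3 to 0.946 for TMEM139. They were 0.346 for DENND11 with SCN1A, 0.938 for CD83 with SSTR3 and 0.826 for CHURC1 with LINC02413. The BPA levels that chose the 4 genes enter these values, so they are a description only.

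The other sodium channel pore subunits did not all go the way of SCN1A. Apart from SCN1A, 5 of 10 listed genes were tested, 3 were called lower and 1 higher in BPA, and their median log2 fold change was -1.29, beside -0.02 over all tested genes. The shares over all tested genes, for this and each list below, were 17.6% lower and 17.3% higher in BPA. In TCDD they were 2.8% lower and 6.45% higher. SCN9A, which encodes the Nav1.7 channel of pain-sensing neurons, stood at 8.54, 7.74, 11.6 and 13.1 CPM in BPA libraries, against 19.4, 22.2, 33.3 and 25.2 CPM in DMSO libraries. It fell by 1.29 on the log2 scale (SE 0.21, edgeR adjusted p = 4.42e-05), with no overlap. SCN4A, the skeletal muscle channel Nav1.4, rose by 3.16 (SE 0.45, edgeR adjusted p = 8.89e-06) at low levels of 0.573 ± 0.218 CPM in BPA and 0.059 ± 0.035 CPM in DMSO (SD, n = 4 each). Its DMSO libraries held 1, 2, 4 and 7 reads and BPA replicate 3 held 8. The DMSO mean is thus within the range of the floor, and the size of this fold is uncertain. SCN2A, the Nav1.2 channel of excitatory neurons, was called at -2.93 (edgeR adjusted p = 0.0193), with 0.106 ± 0.098 CPM in BPA and 0.750 ± 0.726 CPM in DMSO. Its DMSO replicates 1 and 4, at 0.122 and 0.145 CPM, lay within the BPA range of 0 to 0.232 CPM. SCN11A, the Nav1.9 channel of sensory neurons, was called at -1.29 (edgeR adjusted p = 0.0332). SCN8A, the Nav1.6 channel, was at -0.49 (edgeR adjusted p = 0.197). The count of 3 lower was 1 without DMSO replicate 3, BPA replicate 1 or BPA replicate 2.

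Among the beta subunits and partners of the channel, 7 of 11 genes were tested, 1 was higher and 0 were lower in BPA, with a median of 0.47. The number higher was 0 with upper-quartile factors and 3 with a replicate block, and it was 2 without DMSO replicate 4 or BPA replicate 4. The gene called was NEDD4L, a ubiquitin ligase that removes channels from the membrane, at 280.0 ± 35.8 CPM in BPA and 202.0 ± 21.3 CPM in DMSO (log2 fold change 0.47, edgeR adjusted p = 0.00730). In TCDD 2 of the 7 were higher, SCN4B at 1.62 (edgeR adjusted p = 0.00118) and NEDD4L at 0.52 (edgeR adjusted p = 0.0107), and 0 were lower.

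Of 7 tested voltage-gated calcium channel genes 4 were higher and 1 lower in BPA, with a median of 0.97. Over all tested genes 17.3% were higher and 17.6% lower. With water in place of DMSO 3 were higher and 2 lower. CACNA1H, a T-type pore subunit, was at 27.5 ± 6.4 CPM in BPA and 6.39 ± 0.87 CPM in DMSO and rose by 2.10 (edgeR adjusted p = 1.64e-08). CACNB4, an auxiliary subunit linked to epilepsy, fell by 2.66 in BPA (edgeR adjusted p = 7.09e-07) and rose by 1.86 in TCDD (edgeR adjusted p = 5.23e-05), with 1.35 ± 0.31 CPM in BPA, 30.6 ± 9.3 CPM in TCDD and 8.42 ± 2.79 CPM in DMSO. CACNB1 rose by 1.17 and CACNA2D4 by 0.77 in BPA (edgeR adjusted p = 0.00147 and 0.00288). Of 8 tested voltage-gated potassium and HCN channel genes, 3 were higher and 0 lower in BPA, with a median of 0.22. With upper-quartile factors 2 were higher and 1 lower, and with library size alone 1 was higher and 1 lower. Leaving out DMSO replicate 3, BPA replicate 1 or BPA replicate 2 left 1 higher. The 3 genes were KCNC4 at 1.47, KCNH2, the cardiac hERG channel, at 0.92, and HCN2, a pacemaker channel, at 0.79 (edgeR adjusted p = 6.37e-05, 0.0233 and 0.0436).

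Within the somatostatin system the peptide genes SST and CORT were not tested and averaged no more than 0.006 CPM in BPA and 0.024 CPM in DMSO, below the floor. SSTR5, a receptor for the same peptide, went the opposite way to SSTR3. It stood at 7.23, 6.36, 8.67 and 8.11 CPM in BPA libraries, against 1.80, 2.64, 2.28 and 1.65 CPM in DMSO libraries. It rose by 1.86 on the log2 scale (SE 0.21, edgeR adjusted p = 4.15e-07), with all BPA libraries above all DMSO libraries. SSTR1 fell by 1.52 (edgeR adjusted p = 0.00511), with 0.146 ± 0.077 CPM in BPA and 0.441 ± 0.091 CPM in DMSO. The summed CPM of the 7 genes of the system, SSTR3 included, was 7.17 to 9.73 in BPA libraries, against 10.0 to 17.6 in DMSO libraries. SSTR3 had the highest mean CPM of the receptors in DMSO and SSTR5 in BPA, levels that are not scaled for length.

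**Figure D3:**
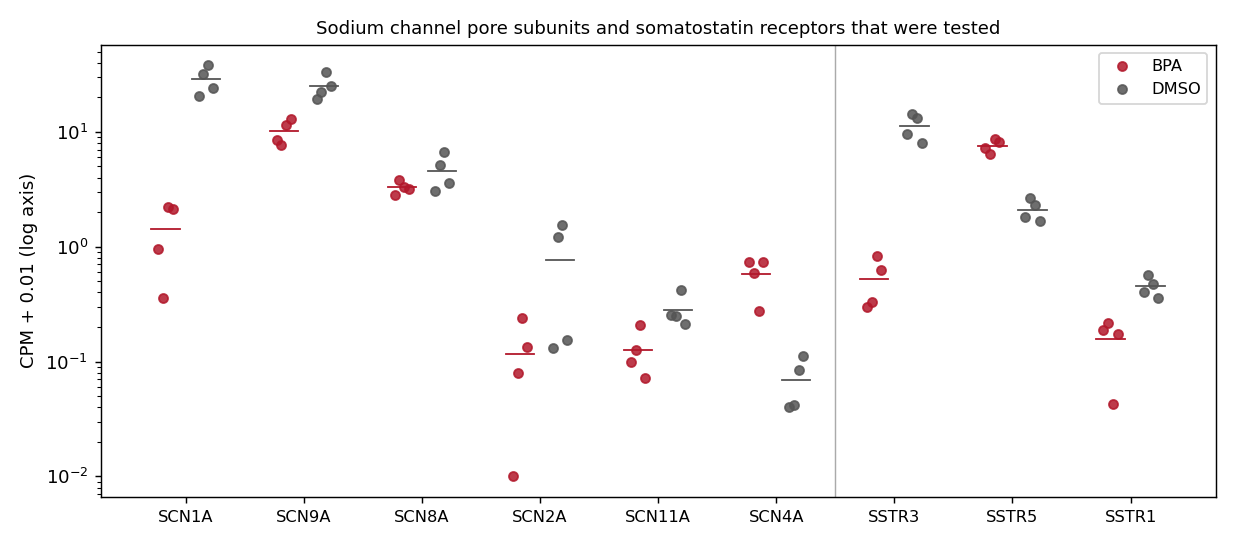
CPM plus 0.01 on a log axis in BPA and DMSO libraries for the tested sodium channel pore subunits and somatostatin receptors. Points are libraries and bars are means of 4. SCN1A and SSTR3 are lower in BPA, whereas SCN4A and SSTR5 are higher. SCN4A rests on 1 to 7 reads in its DMSO libraries.

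Downstream of SSTR3, 14 of 17 listed genes of inhibitory G protein signalling were tested, 7 were higher and 2 lower in BPA, with a median of 0.36. The shares over all tested genes were 17.3% higher and 17.6% lower. GNAZ, an inhibitory alpha subunit, was at 48.8 ± 5.8 CPM in BPA and 24.8 ± 5.1 CPM in DMSO and rose by 0.97 (edgeR adjusted p = 1.63e-05). ARRB2 and GRK2, which end receptor signalling, rose by 0.65 and 0.72 (edgeR adjusted p = 1.77e-06 and 3.91e-05). ADCY3, the adenylyl cyclase of neuronal cilia, fell by 1.66 (edgeR adjusted p = 4.86e-05), with 0.523 ± 0.191 CPM in BPA and 1.67 ± 0.27 CPM in DMSO. Of 24 tested primary cilium genes 5 were lower and 1 higher in BPA, with a median of -0.08. The share called lower was close to the 17.6% of all tested genes. MCHR1, another receptor of neuronal cilia, fell by 4.67 (SE 0.65, edgeR adjusted p = 5.43e-06), with 0.024 ± 0.018 CPM in BPA, below the floor, and 0.672 ± 0.263 CPM in DMSO. GPR161, a ciliary receptor that restrains Hedgehog signalling, fell by 0.96 and SMO, the Hedgehog transducer, by 0.57 (edgeR adjusted p = 0.00757 and 0.00759). INPP5E, a ciliary lipid phosphatase, rose by 0.99 (edgeR adjusted p = 0.00425). KIF3A, a motor subunit of cilium transport, was at 0.02 (edgeR adjusted p = 0.934).

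Of 35 listed keratin-associated proteins and hair keratins other than KRTAP3-1, only 3 had enough counts to be tested, and 2 of the 3 were lower in BPA, with a median of -2.27. KRTAP2-3 was called at -4.23 (edgeR adjusted p = 0.00321) with 0.005 ± 0.010 CPM in BPA and 0.153 ± 0.096 CPM in DMSO, so its BPA level is under the floor. How reads shared with its near-identical relatives were counted is not stated, so its counts are uncertain. KRT39 was called at -2.27 (edgeR adjusted p = 0.0208) in BPA and at -2.78 (edgeR adjusted p = 0.0214) in TCDD. Its levels were 0.054 ± 0.021 CPM in BPA, 0.037 ± 0.031 CPM in TCDD and 0.258 ± 0.149 CPM in DMSO, so both compounds had it near or under the floor and these folds are uncertain. KRT37, a hair keratin, was at -0.48 in BPA (edgeR adjusted p = 0.308) and rose by 1.75 in TCDD (edgeR adjusted p = 8.00e-04). The count of 2 lower in BPA was 1 without DMSO replicate 3, DMSO replicate 4 or BPA replicate 2, and 0 in a fit of the 2 groups alone. KRTAP3-2 and KRTAP3-3, of the same subfamily as KRTAP3-1, had at most 1 read in any library. Among 4 tested hair follicle regulators 1 was lower, LGR5, a stem cell receptor, at 26.6 ± 11.4 CPM in BPA and 57.9 ± 19.0 CPM in DMSO (log2 fold change -1.12, edgeR adjusted p = 0.00387), with a list median of -0.09.

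The neuronal name was checked against 26 general neuron markers, of which 12 were tested. In BPA 0 of the 12 were lower and 1 was higher, with a median of -0.01, and the sum of all 26 was 96.5 to 126.0 CPM in BPA libraries, against 94.9 to 157.5 CPM in DMSO libraries. ENO2 was at 76.8 ± 6.9 CPM in BPA and 75.4 ± 20.8 CPM in DMSO, and TUBB3 at 6.03 ± 0.73 CPM in BPA and 6.24 ± 0.80 CPM in DMSO. SYP was at 19.8 ± 11.6 CPM in BPA and 31.6 ± 31.7 CPM in DMSO. Its log2 fold change was -0.68 (SE 0.78, edgeR adjusted p = 0.535), too uncertain to resolve a change of that size. ENO2 and SYP had the highest levels of the list and dominate its sum. The defining markers RBFOX3, DCX and NEFL averaged 0.0273, 0.0115 and 0.0055 CPM in BPA, against 0.0278, 0.0093 and 0.0267 CPM in DMSO, all below the floor. The marker called higher was UCHL1 at 1.43 (edgeR adjusted p = 0.0354), a call lost in 8 of 15 alternatives. These were leaving out BPA replicate 2 or DMSO replicate 2, 3 or 4, upper-quartile factors, library size alone, no filter on low counts, and a fit of the 2 groups alone. The low SCN1A and SSTR3 RNA in BPA came without a called fall of any tested neuron marker. Several tested markers were very low, such as SYN1, SNAP25 and MAP2 at 0.160, 0.131 and 0.092 CPM in DMSO. For these a fall could hardly be seen. In TCDD 1 of the 12 rose, GAD1, the enzyme that makes GABA, with 11.0 ± 1.6 CPM in TCDD libraries and 0.241 ± 0.132 CPM in DMSO libraries (log2 fold change 5.51, edgeR adjusted p = 5.65e-10).

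REST is a repressor that keeps neuronal genes silent in other tissues. REST itself was at 25.6 ± 1.5 CPM in BPA and 29.3 ± 1.4 CPM in DMSO (log2 fold change -0.19, edgeR adjusted p = 0.328). Of 10 tested genes of its complex 1 was higher, RCOR3 at 0.42 (edgeR adjusted p = 0.00140), and 1 was lower, HDAC1 at -0.41 (edgeR adjusted p = 0.00125), with a median of -0.09. Of 5 tested estrogen receptors and targets, listed because bisphenol A binds estrogen receptors, 1 was higher and 2 lower, with a median of -0.69. The classical receptors ESR1 and ESR2 had too few counts to be tested, with at most 4 reads in a library. The gene called higher was ESRRA, an orphan receptor, at 145.7 ± 19.6 CPM in BPA and 72.5 ± 12.3 CPM in DMSO (log2 fold change 1.01, edgeR adjusted p = 7.46e-05). Those called lower were GPER1 and PDZK1. GPER1 was at 21.2 ± 5.0 CPM in BPA and 34.6 ± 5.3 CPM in DMSO (log2 fold change -0.71, edgeR adjusted p = 2.09e-04). PDZK1 fell by 1.66 (edgeR adjusted p = 0.00357). Of the 10 hepatocyte markers 2 were higher and 3 lower with a median of -0.48, and of 6 tested leukocyte, endothelium and stroma markers 1 was lower with a median of -0.29. PFOS, TBTCl and CdCl2 had 0 called genes in each of the lists given here.

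**Figure D4:**
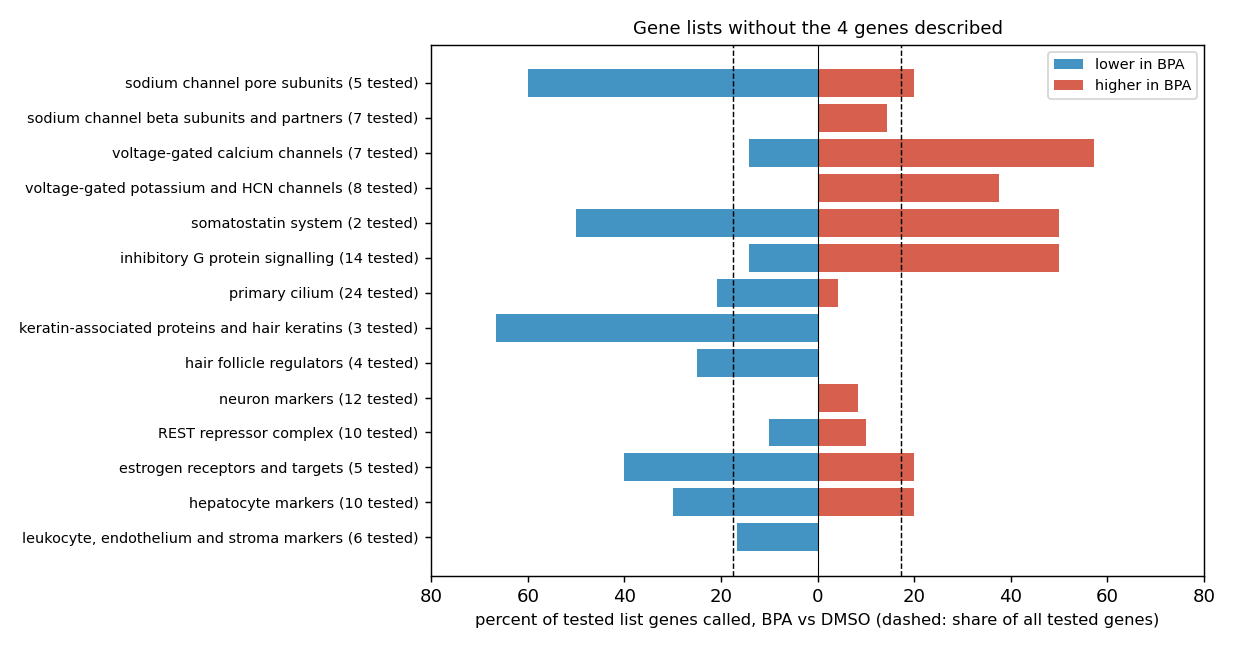
Percent of the tested genes of each list called lower (left) or higher (right) in BPA against DMSO, without the 4 genes described. Dashed lines give the shares over all tested genes, 17.6% lower and 17.3% higher. Bars of short lists rest on few genes, as for the 3 hair keratin genes.

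Genes within 500 kb of each of the 4 were examined for the same change. Over all tested genes 17.6% were called lower and 17.3% higher in BPA. Around SCN1A 3 of 3 tested genes were lower in BPA. TTC21B, which encodes a protein of cilium transport, was at 24.2 ± 2.9 CPM in BPA and 52.0 ± 3.7 CPM in DMSO. It fell by 1.10 in BPA (edgeR adjusted p = 6.67e-08) and by 0.70 in TCDD (edgeR adjusted p = 6.89e-05), and SCN9A on the other side is given above. SCN1A-AS1, on the opposite strand and overlapping both SCN1A and part of SCN9A, fell by 3.10 in BPA (edgeR adjusted p = 2.63e-04). How strand was treated in counting is unstated, so where the genes overlap, reads of SCN1A-AS1 cannot be told apart from those of SCN1A or SCN9A. SCN1A-AS1 is among the 3 genes counted, so it may not be an observation separate from SCN1A or SCN9A.

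Around SSTR3 20 genes were tested, with 4 lower and 4 higher in BPA and a median of 0.05. These counts are close to the shares over all tested genes, 17.6% lower and 17.3% higher. The nearest were C1QTNF6 at 12.9 kb, which fell by 0.65 (edgeR adjusted p = 0.0192), and RAC2 at 32.1 kb on the other side, which fell by 1.32 (edgeR adjusted p = 0.00276). Around KRTAP3-1 4 of 14 tested genes were lower and 0 higher, with a median of -0.29. They included its nearest tested neighbours KRTAP2-3 and KRT39, and KRT23, a keratin of simple epithelia, at 27.8 ± 3.4 CPM in BPA and 43.5 ± 7.2 CPM in DMSO (log2 fold change -0.65, edgeR adjusted p = 0.00460). Around LINC02413 3 of 7 tested genes were lower and 0 higher, with a median of -0.37. Its nearest tested neighbours by start site, EEA1 and RPL41P5, were at -0.01 and 0.69 (edgeR adjusted p = 0.954 and 0.119). NUDT4, at 378.7 kb, fell by 0.91 (edgeR adjusted p = 0.0105). ENSG00000257322, which overlaps LINC02413 on the opposite strand, was at -0.54 (edgeR adjusted p = 0.383).

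**Figure D5:**
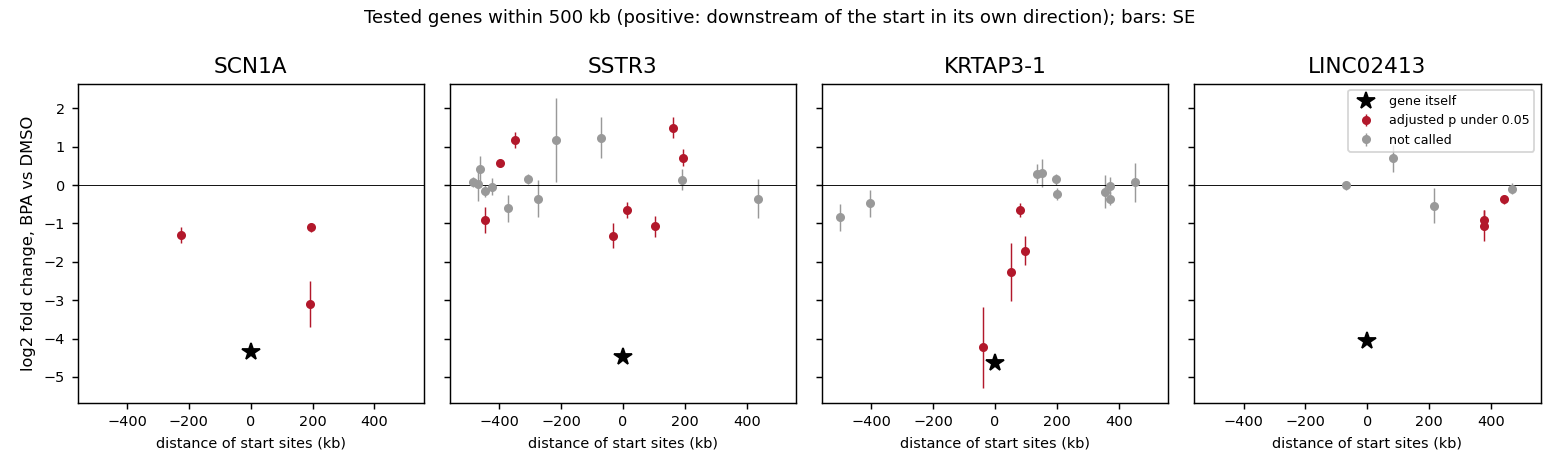
Log2 fold change of BPA against DMSO with its SE for tested genes within 500 kb, against the distance between start sites, positive in the direction of transcription. Stars mark the 4 genes themselves. The 3 tested neighbours of SCN1A are all lower, while those of SSTR3 lie on both sides of 0. Over all tested genes 17.6% were called lower and 17.3% higher.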

How the data were processed

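RNA of HepG2 cells was sequenced in 28 libraries, 7 groups of 4, taken from the labels. The authors deposited whole-number read counts per gene, and the submitters' processing notes list fastp, STAR, HTSeq and DESeq2 and the build GRCh38. Their versions, the gene annotation and the handling of strand were not found in the sources used here. The last of 63140 rows was left out because the file ends there without a line break. Symbols matched 62541 and GENCODE release 29 matched 58126 identifiers.

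Counts were tested with edgeR 4.0.16 (quasi-likelihood, TMM, filterByExpr with minimum count 10, R 4.3.3). The fit held all 28 libraries and 7 group means, leaving 21 residual degrees of freedom, and Benjamini-Hochberg adjustment ran over 18849 genes at 0.05. The procedure was tested on simulated data with a common spread for all genes and changed genes in TCDD only. That setting does not cover spread that differs between genes or the wide change in BPA. The SE is the log2 fold change over the square root of F. DESeq2 1.42.0, water as reference, upper-quartile factors, library size alone, no filter, 2 groups alone, a replicate block and leaving out each library were alternatives. CPM values are TMM scaled, and likeness used log2(CPM + 0.1). Libraries of a group differed by more than counting error, so none was counted as a copy. Where libraries come from separate cultures is given only as independent experiments.

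The members and lists were chosen with earlier results of these data known. Named genes were the 4 members, up to 4 genes with the smallest p per list, 3 most similar genes per member, nearest tested neighbours, and genes next to the members in the order of falls. Other genes named (for example ENO2, TUBB3, KIF3A, SCN8A, ESRRA, CYP1A1, TTC21B, NUDT4, KRT23 and the genes called in TCDD) are examples chosen after their values were seen. Some genes that the rule would name are not reported here. The numbers of replicates correlated above 0.1 for every pair (0.182 to 0.308 for BPA and DMSO) except for TCDD (-0.233 to 0.477). The pairing thus comes from the data, and the labels do not state it.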

Additional observations from a re-analysis of the deposited data

Results flagged for a closer look

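In 144 sets of 4 libraries (the 4 genes in 7 groups, and the named genes in BPA and DMSO), 9 had a library far from the other 3, with a gap above the 95% critical value of Dixon's test. Chance gives about 1 such set in 20.

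SSTR3 was at 11.2 CPM in TCDD replicate 1, against 2.68 to 4.08 CPM in the other 3 TCDD libraries, and KRTAP3-1 was at 9.41 CPM in TBTCl replicate 3, against 3.46 to 4.18 CPM in the other 3. SCN4B was at 1.15 CPM in BPA replicate 2 (others 0.413 to 0.532 CPM) and at 0.493 CPM in DMSO replicate 2 (others 0.315 to 0.335 CPM). UCHL1 was at 0.620 CPM in BPA replicate 2 (others 0.199 to 0.244 CPM), and KRT39 at 0.0230 CPM in the same library (others 0.0620 to 0.0665 CPM). SIN3A was at 64.2 CPM in BPA replicate 4 (others 56.8 to 58.0 CPM), KRTAP2-3 at 0.0207 CPM in BPA replicate 4 (others 0), and GNAZ at 32.5 CPM in DMSO replicate 4 (others 21.7 to 22.9 CPM). The cause of these gaps was not tested.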

How the results depend on the processing

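The number of the 4 genes called in TCDD against DMSO was 1. It was 2 without a filter on low counts, where SSTR3 also passed, and between 0 and 1 when a library was left out. The direction of SCN1A in TCDD held in all 15 alternatives, from -1.41 to -1.10 on the log2 scale, with adjusted p from 4.44e-04 to 0.0862. In PFOS, TBTCl, CdCl2 and DMSO against water 0 of 4 was called under every alternative run. The BPA log2 fold changes ran from -4.67 to -4.03 for SCN1A, -4.76 to -4.28 for SSTR3, -4.90 to -4.15 for KRTAP3-1 and -4.30 to -3.87 for LINC02413. Of 277 alternative values of uncalled results, 33 changed sign.

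With the replicate number as a block, 1 of the 4 genes was called in TCDD (SCN1A at -1.22, adjusted p = 0.0107) and 0 elsewhere, and KRTAP3-1 in CdCl2 was at 1.57 with an adjusted p of 0.133. The block changed no call of the 4 genes. It moved the number of all genes called to 2722 in TCDD, 84 in PFOS, 179 in TBTCl and 28 in CdCl2, against 1743 in TCDD, 3 in PFOS, 27 in TBTCl and 4 in CdCl2 without it. DESeq2 called 127 in PFOS, 252 in TBTCl and 15 in CdCl2. Without a filter the numbers were 78, 111 and 25. Over all alternatives they ran from 0 to 127 in PFOS, 1 to 252 in TBTCl and 0 to 28 in CdCl2.

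Among the lists, calls lower in BPA ran from 1 to 3 for sodium channel pore subunits, 1 to 2 for calcium channels, 0 to 2 for potassium and HCN channels, 1 to 2 for inhibitory G protein signalling, 3 to 6 for cilium genes, 0 to 2 for hair keratins, 1 to 2 for hair follicle regulators, 1 to 3 for REST complex genes, 2 to 7 for hepatocyte markers and 1 to 2 for leukocyte, endothelium and stroma markers. Calls higher ran from 0 to 3 for sodium channel partners, 3 to 4 for calcium channels, 1 to 3 for potassium and HCN channels, 1 to 2 for the somatostatin system, 5 to 7 for inhibitory G protein signalling, 1 to 2 for cilium genes, 0 to 1 for neuron markers, 0 to 3 for REST complex genes and 0 to 2 for hepatocyte markers. The cause was not tested. The BPA values of KRTAP3-1, KRTAP2-3, KRT39, SCN2A, SCN11A, SSTR1 and MCHR1 rest on few reads, as do the DMSO values of SCN4A.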
